A study of Ovis aries with 26 samples.

Results

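The cells described here are endocrine cells of the fetal and newborn sheep pancreas that carried little of the islet hormones that could be measured. They were chosen by their own transcripts. Barcodes were kept if between 200 and 6000 genes were seen in them and mitochondrial transcripts stayed below 25%. A kept cell was a member if it had at least 3 unique molecular identifiers (UMIs, each standing for 1 captured transcript molecule) of CHGA and at least 1 UMI of SCGN, INSM1 or ISL1, and carried each of GCG (glucagon), SST (somatostatin) and PPY (pancreatic polypeptide) below 3000 counts-per-million (CPM) in the cell. The counts used here have no entry for the insulin gene, so insulin could not be part of the rule, and beta cells fall into this set together with any endocrine cell that makes none of these hormones yet. In all, 2534 cells met the rule, out of 8337 cells that met its CHGA and SCGN, INSM1 or ISL1 part with any hormone level and out of 79510 kept cells. The other 5803 endocrine cells, here called hormone-rich, were led by GCG in 4581 cells, by PPY in 613 and by SST in 609.

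Single-cell RNA-seq libraries, read at the 3′ end of transcripts, came from pancreas that had been freshly digested with collagenase. The 26 libraries came from 23 American Romney sheep in 7 groups, and the study compared wild type (WT) animals with animals lacking CFTR, the chloride and bicarbonate channel that is mutated in cystic fibrosis. The WT group at 80 days of gestation had 4 naturally bred male fetuses, of which replicates 1 and 3 were WT and replicates 2 and 4 were CFTR+/- with an edit in exon 11, and replicates 2 to 4 shared a litter. The CFTR-/- group at 80 days had 3 cloned males from 1 male fibroblast line edited in exon 2, and by their animal numbers replicates 2 and 3 came from 1 pregnancy. At 120 days there were 3 naturally bred WT fetuses (replicate 2 female, replicates 1 and 3 male), 4 cloned CFTR-/- males and 2 naturally bred CFTR-/- females that were twins. The animal numbers put WT replicates 1 and 2 and cloned replicates 2 and 3 at that age each in 1 pregnancy too. At term there were 4 naturally bred WT lambs (replicate 3 female, the others male) and 3 CFTR-/- lambs, replicates 1 and 2 naturally bred females and replicate 3 a cloned male. Genotype therefore cannot be told apart from cloning at 80 days and for the males at 120 days. It cannot be told apart from sex in the gene tests of the females at 120 days, where both WT fetuses were male, and in part at term. Cells of clones and of littermates share a genome or a litter, so the tests below measure the spread between these animals only.

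Islet endocrine cells arise from duct-like progenitors that switch on NEUROG3, pass through a FEV-expressing precursor state and then settle on a hormone. They store their hormones in dense granules with chromogranins and cut the prohormones with the convertases PCSK1 and PCSK2. Beta cells sense glucose through transporters, a glucokinase step and ATP-sensitive potassium channels, and make insulin in such amounts that their endoplasmic reticulum carries a heavy folding load.

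Total counts ran from 7841217 to 171256169 UMIs per library. Members held 515 to 130893 UMIs each with a median of 11804.5, and the pooled median in hormone-rich cells was 11730 UMIs. Within animals the 2 medians were often further apart. At 80 days they averaged 15370 in members against 18403 UMIs in the WT group and 14742 against 19465 in the CFTR-/- fetuses. Animals that went the other way included WT replicate 3 (14166.5 against 8806) and CFTR-/- replicate 2 (15585 against 6321.5) at term. No member barcode was a member in more than 1 library, while 824 kept barcodes occurred in more than 1 library. Cloned CFTR-/- replicate 3 at 120 days had 943 kept cells and no endocrine cell, and WT replicate 1 at term had 1 endocrine cell among 1082 kept cells and no member. These counts of 0 allow a share of up to 0.318% and 0.277% of kept cells, for counting error only. CFTR-/- replicate 1 at term stood at the other end with 454 members, more than any other animal. For sums of counts per animal, 19 animals with at least 20 members were used, with 290694 to 6841208 UMIs each.

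The targeted gene gave no check of genotype, because counts from the 3′ end of CFTR lie outside the edited exons. Duct-rich cells were kept cells that missed the endocrine part of the rule, with at most 5% of UMIs from acinar genes. They held UMIs of at least 3 of KRT19, SLC4A4, EHF, ELF5, CLDN4, CLDN6, MMP7, CFTR and SPP1. CFTR thus helped to choose them, so its levels there are a description only. In duct-rich cells, where CFTR is normally made, its level was 52.1 to 106 CPM in the 4 WT group fetuses at 80 days. It was 297, 317 and 515 CPM in the 3 CFTR-/- fetuses. In members it was 4.91 to 6.17 CPM in the WT group at 80 days and 26.9, 34.5 and 23.5 CPM in the CFTR-/- fetuses. With a log2 difference of 2.15 ± 0.49 (SE) it did not pass (edgeR adjusted p = 0.114), and without the members that carried transcripts of other cell types the difference was 0.67 (adjusted p = 0.904).

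General endocrine transcripts were high in these cells, as the label says. Against all kept cells outside the endocrine gate, SCG3 (log2 ratio 4.94), SCG5 (4.80) and RESP18 (4.79), proteins of the secretory granule, PCSK1 (4.68) and the granule inhibitor PCSK1N (3.81) were higher in each of the 19 animals, as were DIRAS3 (4.83), TTR (4.65), TMSB15B (4.12), ANXA10 (3.98) and NGFRAP1 (3.92). Of the 2677 genes in this contrast 37% were higher and 3.74% lower in members in every animal. Set against acinar-rich cells these shares were 70.8% and 2.76%, and against duct-rich cells 5.28% and 10.9%. The 14 granule genes had a median log2 ratio of 3.27. Of the genes of the rule, SCGN was seen in 2454 members (96.8%), INSM1 in 2111 (83.3%) and ISL1 in 1473 (58.1%), and 1305 (51.5%) held all 3. The highest of the 3 hormones in a member had a median of 146 CPM against 105982 CPM in hormone-rich cells, and 438 members (17.3%) had no UMI of any. Near the limits, 47 members lay from 2000 to under 3000 CPM and 42 cells lay outside the limit by less than 1000 on the same scale, while 183 members had exactly 3 CHGA UMIs and 288 cells with 2 met the rest of the rule.

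The share of members was lower in the WT groups of later ages, and no difference in share passed a test. At 80 days they made up 5.03%, 7.40%, 6.38% and 7.67% of kept cells in WT replicates 1 to 4, and 2.63%, 5.52% and 7.32% in the CFTR-/- fetuses. At 120 days the 3 WT fetuses had 3.47%, 0.976% and 3.81%. Each WT group fetus at 80 days was thus above each at 120 days, and the means of 6.62% ± 1.20 (SD, n = 4) and 2.75% ± 1.55 (SD, n = 3) differed by -3.86 percentage points (exact permutation p = 0.0571, the smallest this design allows; adjusted p = 0.343 over 6 comparisons). The 4 cloned CFTR-/- males at 120 days had 4.10%, 3.77%, 0% and 1.21% and the 2 females 0.564% and 1.53%. At term the WT lambs had 0%, 2.45%, 1.42% and 0.798%, and the CFTR-/- lambs had 4.84%, 0.621% and 0.194%. The values of the 2 genotypes overlapped at every age. The difference was -1.46 points at 80 days (exact p = 0.4), -0.485 for the males at 120 days (exact p = 0.857), -1.71 for the females (exact p = 0.4, smallest possible 0.2) and 0.72 at term (exact p = 0.686), and at term it became -0.759 without CFTR-/- replicate 1. Thinned to 3000 UMIs per cell it was -0.633 at 80 days, 0.315 for the males and -0.613 for the females.

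Within the endocrine cells the share of members was most even at 80 days. It was 38.2% to 43.4% in the 4 WT group fetuses and 33.5% to 40.4% in the 3 CFTR-/- fetuses. At 120 days it was 38.6%, 21.3% and 23.6% in the WT fetuses, 32.8%, 20.3% and 10.7% in the 3 cloned CFTR-/- males with endocrine cells, and 13.2% and 10.3% in the CFTR-/- females. Both females lay below all 3 WT fetuses, by 16.1 points in the mean (exact p = 0.2, the smallest possible; adjusted p = 0.48). With every cell thinned to 3000 UMIs the shares were 18.8%, 17.5% and 14.1% in the WT fetuses and 8.75% and 12.7% in the females, and the means differed by -6.07 points. At term the range was widest, from 0% to 39.3% in the WT lambs and from 2.52% to 51.3% in the CFTR-/- lambs. None of the 6 comparisons of this share could pass, since the smallest exact permutation p possible was 0.0571 to 0.2 (adjusted p of 0.48 to 0.914). After the same thinning the difference for the males at 120 days was 2.08 points, against -6.57 before. WT replicate 1 at term, whose 0% rests on 1 endocrine cell, has no thinned share. Without that lamb, CFTR-/- against WT at term differed by -4.01 points before thinning and -1.98 after it, and by 2.24 with the lamb. WT lambs against WT fetuses at 120 days differed by -2.84 points without that lamb and 6.99 after thinning, and by -9.09 with the lamb.

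**Figure D1:**
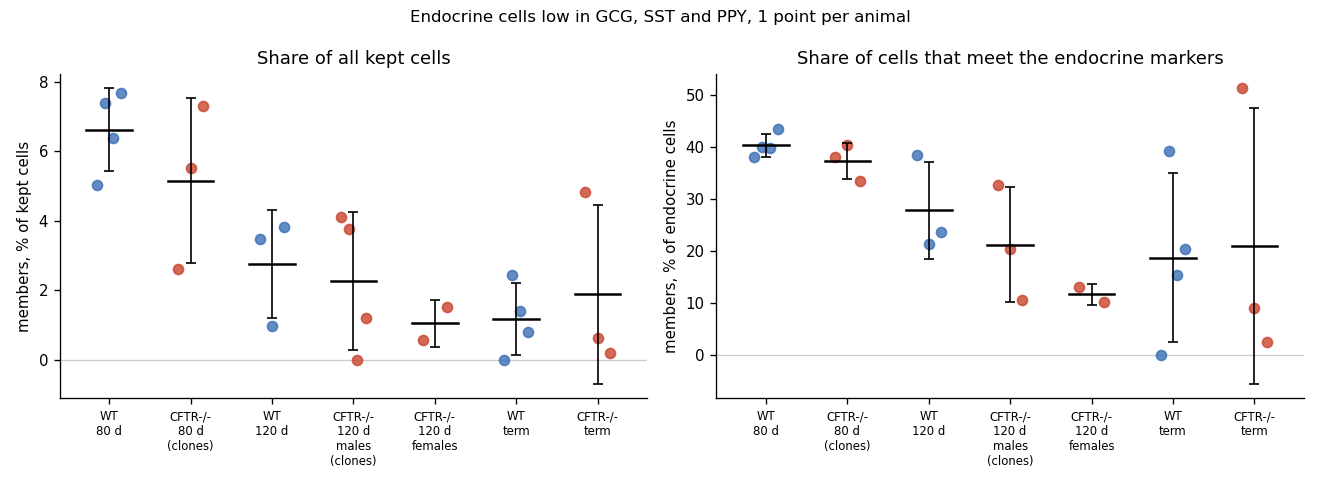
Low-hormone endocrine cells as a percentage of all kept cells (one panel) and of all endocrine cells (the other) in each animal, by group, with the mean as a bar and the SD as an error bar; WT groups are blue and CFTR-/- groups red. The 4 WT group fetuses at 80 days sit between 5.03% and 7.67% of kept cells, above the 3 WT fetuses at 120 days, and the lamb at 4.84% is CFTR-/- replicate 1 at term.

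Against the hormone-rich endocrine cells of the same animal, members had more DLK1, GTL2, PCSK1, HADH and SLC2A2 and less CARTPT, GPR119 and IRX2. Since the rule made this contrast, its values are a description and were not tested. Among 2698 genes compared in 19 animals, 78 (2.89%) were higher in members in every animal and 95 (3.52%) lower in every animal, with 33 and 28 of them past a 2-fold median. Ratios are log2 with 20 CPM added, so they understate the change of scarce genes, and the median over all genes was 0.07.

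DLK1, a transmembrane ligand of the Delta family from an imprinted cluster, led the list with a median log2 ratio of 3.88 (0.18 to 7.04 over the animals) and a median of 1203 CPM in members against 22.8 CPM in hormone-rich cells. GTL2, the non-coding RNA made from the other parental copy of that cluster, followed with 2.93 (637 against 43.7 CPM). The zinc finger gene PLAGL1 (2.31, 114 against 5.02 CPM) and MEST (1.59, 113 against 15.9 CPM) are imprinted genes too. DLK1 varied widely within members. After thinning every cell to 3000 UMIs, 23.5% of members had a DLK1 UMI against 3.09% of hormone-rich cells and 1.02% of acinar-rich cells, which serve as the background here. Without thinning these shares were 30.9%, 7.20% and 4.26%.

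PCSK1, which makes the first cuts in proinsulin, stood at a median of 665 CPM in members and 66.5 CPM in hormone-rich cells (log2 ratio 2.68). SLC2A2, the glucose transporter GLUT2, stood at 115 against 3.61 CPM (2.25). HADH, a mitochondrial enzyme of fatty acid oxidation whose loss causes hyperinsulinism, stood at 242 against 28.7 CPM (2.43). MLXIPL, a glucose-responsive transcription factor (ChREBP), had a ratio of 1.48 and GPD1, a glycerol phosphate dehydrogenase, 1.87. Also among the 20 highest were SMIM24 (2.85), PLCXD3 (2.04), SLITRK4 (1.73), the protein disulfide isomerase P4HB (1.36) and PKDCC (1.34). After thinning, 29.6% of members had an SLC2A2 UMI against 1.23% of hormone-rich and 0.0105% of acinar-rich cells, and 53.1%, 2.74% and 0.0667% without thinning. The share of members with SLC2A2 was thus above that background.

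The remaining 6 of the 20 highest were CELA3B (1.74), PNLIPRP2 (1.65), CPA1 (1.63), CEL (1.43) and PRSS2 (1.42), which encode digestive enzymes of acinar cells, and LOC101117443 (1.49), a gene most abundant in the acinar-rich cells. All 13 acinar genes found had a higher median in members than in hormone-rich cells, 7 of them in every animal. Their sum had a median of 13112 CPM (2854 to 153039) in members, 4357 CPM in hormone-rich cells and 95816 CPM in acinar-rich cells. After thinning, 48.1% of members and 40.8% of hormone-rich cells had a CELA3B UMI. By group the share was higher in members in 6 of 7 groups (81.8% against 61.6% in the CFTR-/- lambs), and it was 46.9% against 50.5% in the WT fetuses at 120 days. The acinar load differed with age and is given beside each comparison that it touches. Of the members, 145 (5.72%) held more than 5% of their UMIs in 12 acinar genes and 192 (7.58%) were among the cells with the highest doublet scores, that is, barcodes that may hold transcripts of more than 1 cell.

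The genes lowest in members included genes of alpha and PP cells. CARTPT, a neuropeptide precursor, had a median of 45.5 CPM in members and 701 CPM in hormone-rich cells (log2 ratio -3.73). GPR119 (-3.66), a lipid receptor of endocrine cells, IRX2 (-2.92), an alpha cell transcription factor, TAAR1 (-2.56), TMSB15B (-2.51), LDHB (-2.38), PRRG1 (-2.11), ETV1 (-2.02), HOPX (-1.999) and the peptidase ENPEP (-1.83) were also lower in each of the 19 animals. After thinning, 9.53% of members and 76.3% of hormone-rich cells had a CARTPT UMI (23.1% and 92.4% without thinning).

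**Figure D2:**
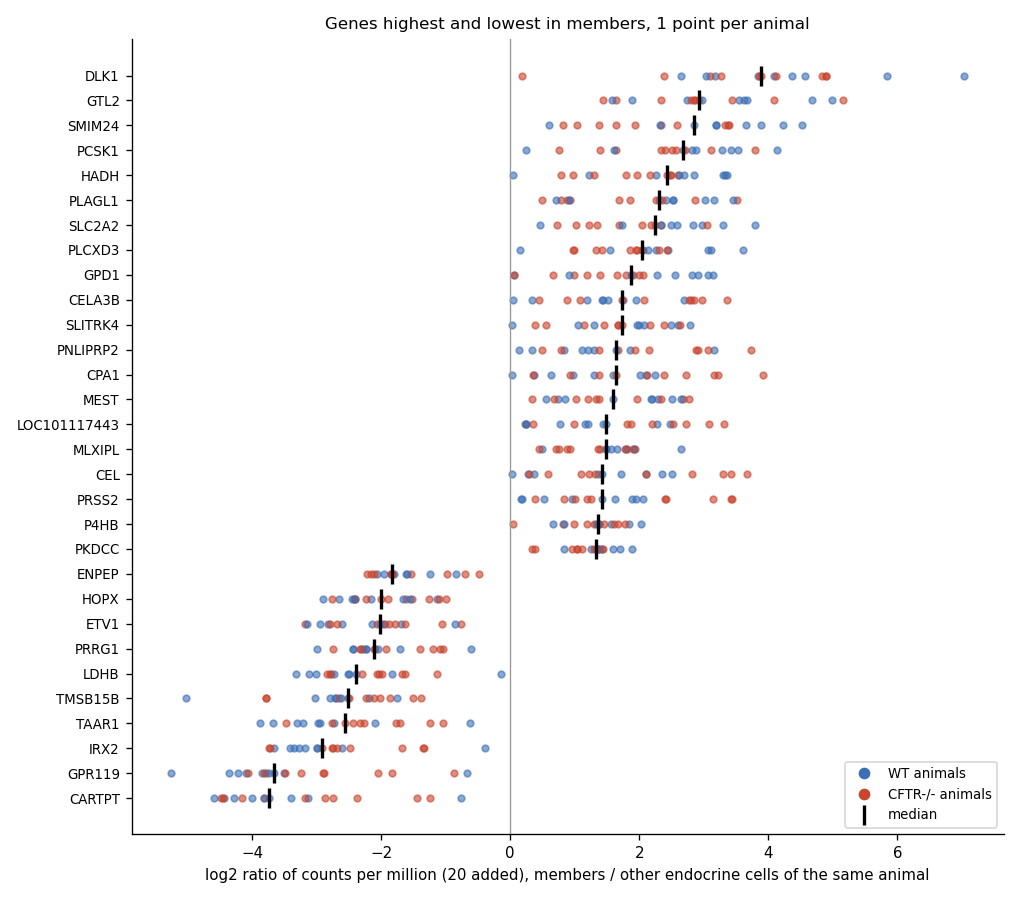
Log2 ratio of counts-per-million (20 added) in low-hormone endocrine cells to those in hormone-rich endocrine cells, 1 point for each of 19 animals and a tick at the median, for the 20 genes with the highest and the 10 with the lowest median. All 30 genes keep 1 sign in every animal; the median is 3.88 for DLK1 and -3.73 for CARTPT.

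The beta cell list held 23 of its 24 genes in the files, and their sum had a median of 3286 CPM (302 to 5997) in members against 522 CPM in hormone-rich cells. Gene by gene the contrast was smaller: 15 had a higher and 3 a lower median in members, with a list median log2 ratio of 0.28. PCSK1, SLC2A2, HADH, DLK1 and ERO1B, an oxidase of the endoplasmic reticulum (log2 ratio 1.04), were higher in every animal. G6PC2, the islet glucose-6-phosphatase, stood at 47.2 against 1.496 CPM and was higher in 18 of 19 animals, and ENTPD3 at 46.1 against 9.36 CPM, also in 18. Other members of the list were near the floor. NKX6-1 had a median of 6.24 CPM and was higher in 16 animals, the zinc transporter SLC30A8 5.61 CPM and MAFA 0.38 CPM. IAPP, which is made with insulin in the beta cells of many species, reached at most 0.29 CPM in any animal, and SIX2 was at 0. ABCC8 and KCNJ11, the subunits of the ATP-sensitive potassium channel, had medians of 108 and 35.8 CPM in members and 93.8 and 29.1 CPM in hormone-rich cells, and NPTX2 was lower in every animal.

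Other endocrine programs were shared or mixed. Among 18 islet transcription factors, MLXIPL and GLIS3 (0.61) were higher in every animal and ETV1 lower in every animal, while PAX6 (0.86) was higher in 16 of 19 animals. Of the 17 genes of the unfolded protein response found, 16 had a higher median in members, with a list median of 0.47. The chaperone HSPA5 stood at 2462 against 1459 CPM, SDF2L1 at 167 against 53.2 CPM and MANF at 703 against 390 CPM. Among the granule genes CHGB was higher in 16 animals (1.13), while SCG2 (-1.14) and RESP18 (-0.93) were lower in every animal. The 27 genes of excitation and exocytosis had a median of 0.01. There, SYT13 (1.38) was higher in 17 animals and the sodium channel SCN3A (-1.11) was lower in all 19. Of the 15 glucose handling genes found 9 had a higher and 5 a lower median, with a list median of 0.17, and GLUD1 (135 against 319 CPM) was higher in 1 animal.

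Of the 14 precursor genes 10 had a higher and 3 a lower median in members than in hormone-rich cells, none of them higher in every animal, and the list median was 0.17. FEV was lower in members in every animal, at a median of 34.8 against 59.6 CPM, and after thinning 7.63% of members and 15.6% of hormone-rich cells had a FEV UMI. The CFTR-/- females at 120 days went the other way in this share, with 18.2% of members and 14.8% of hormone-rich cells. PAX4, a transcription factor of early beta and delta cells, went the other way with 17.2 against 2.12 CPM, higher in 18 animals, and 6.62% against 0.983% of cells after thinning. NEUROG3 was seen in 1.41% of members, 0.123% of hormone-rich and 0% of acinar-rich cells after thinning (3.19%, 0.597% and 0% without). HES6 had 89.2 against 33.6 CPM and was higher in 15 animals.

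Leiden clustering of the 2534 members gave 17 sub-clusters, numbered 0 to 16 here, which are described by their leading genes and were not tested. Precursor genes were highest in sub-cluster 0 (208 cells, 18 animals), led among named genes by HES6 (932 CPM), with SOX4 (766 CPM), FEV (170 CPM), PAX4 (168 CPM) and NEUROG3 (54.6 CPM). It held 12503 CPM of CHGA and only 11.2 CPM of DLK1, and 81.7% of its cells came from 80 days. NEUROG3 was at or below 3.06 CPM in the other sub-clusters.

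The beta cell list had the highest median ratio to the other members in sub-cluster 5 (0.45). Sub-cluster 5 (406 cells) was led by TTR, a thyroid hormone carrier made by islet cells, and SLC2A2 (460 CPM), with 971 CPM of PCSK1. Sub-cluster 1 (437 cells) had no beta cell gene among its 50 leading genes (SLC2A2 206 CPM, PCSK1 905 CPM). It held DDIT3 (531 CPM), HERPUD1 (1509 CPM) and HSPA5 (4939 CPM) of the unfolded protein response and JUN (4339 CPM) and NR4A1 (330 CPM) of the immediate early response. Sub-cluster 2 (371 cells) was led by CTSZ, GIP, LEFTY2, CRYBA2 and VIM with 1296 CPM of PCSK1, and 81.9% of its cells came from 80 days and none from term. Sub-cluster 7 (194 cells) was led among genes with a symbol by ACVR1C, ZNF280B and PLAGL1. SMIM24, DLK1 (6912 CPM) and the delta cell list gene RBP4 (3770 CPM) were also among its leading genes. It had 1357 CPM of PCSK1 and 507 CPM of HADH, and 1.03% of its cells came from term.

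Peptides outside the rule marked sub-cluster 3 (143 cells, 20 animals). It was led by GHRL (1670.4 CPM), which encodes ghrelin, and GAST (485 CPM), which encodes gastrin, with CARTPT (563 CPM) and PYY (287 CPM), and it had 4.25 CPM of SLC2A2. GHRL also had 613 CPM in sub-cluster 0. It came from few cells: in cloned CFTR-/- replicate 1 at 120 days, 1 member held 1878 of 2201 GHRL UMIs. Sub-clusters 4 (21 cells) and 6 (34 cells) were led by genes of DNA replication (PCNA 1071 CPM, with MCM4 and HELLS) and of mitosis (TOP2A 2464 CPM, with CENPF and UBE2C).

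Sub-clusters 8, 9, 10, 11 and 13 carried genes of other cell types. Among the leading genes of sub-cluster 8 (99 cells, median 41130.0 UMIs) were PNLIPRP2, CEL and GP2. Collagens led sub-cluster 9 (51 cells, COL1A1 2382 CPM). Its leading genes also held STMN2 (1054 CPM), GAP43 (563 CPM), PRPH and HAND2, which are genes of neurons or chromaffin cells. Sub-cluster 10 (67 cells) was led by APOA1 (7674 CPM), with the duct genes MMP7, KRT19 (774 CPM) and CFTR (213 CPM). Sub-cluster 11 (128 cells) held SYCN (6174 CPM) and CTRC (6508 CPM), and sub-cluster 13 (18 cells) the immune genes SRGN (1125.0 CPM), CD74 and C1QC. Of the cells of these sub-clusters, in this order, 52.5%, 49.0%, 62.7%, 32.8% and 44.4% were among those with the highest doublet scores. LOC101117443, the acinar gene, had 222700 and 241849 CPM in sub-clusters 8 and 11 and at most 14141 CPM in the others apart from 75522 CPM in sub-cluster 13. Of sub-cluster 11, 88.3% of the cells came from term. Counts below are also given without these sub-clusters, an alternative chosen after the data were seen.

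Sub-clusters 12, 14, 15 and 16 rested on few animals. CFTR-/- replicate 1 at term gave 83.9% of sub-cluster 12 (56 cells; DAPL1, FGG, B2M and GRP), 74.8% of sub-cluster 14 (131 cells; DAPL1, DIO1 and 9064 CPM of DLK1) and 96.4% of sub-cluster 15 (138 cells; CP, NTM, NPTX2 and AREG). WT replicate 3 at term gave 19 of its 46 members to sub-cluster 14. Sub-cluster 16 (32 cells) was led by PHLDA2 and LY6D with 16545 CPM of DLK1. It held 2, 11 and 16 cells of the 3 CFTR-/- fetuses at 80 days, 2 and 1 cells of cloned replicates 1 and 4 at 120 days and no cell of a WT group animal.

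**Figure D3:**
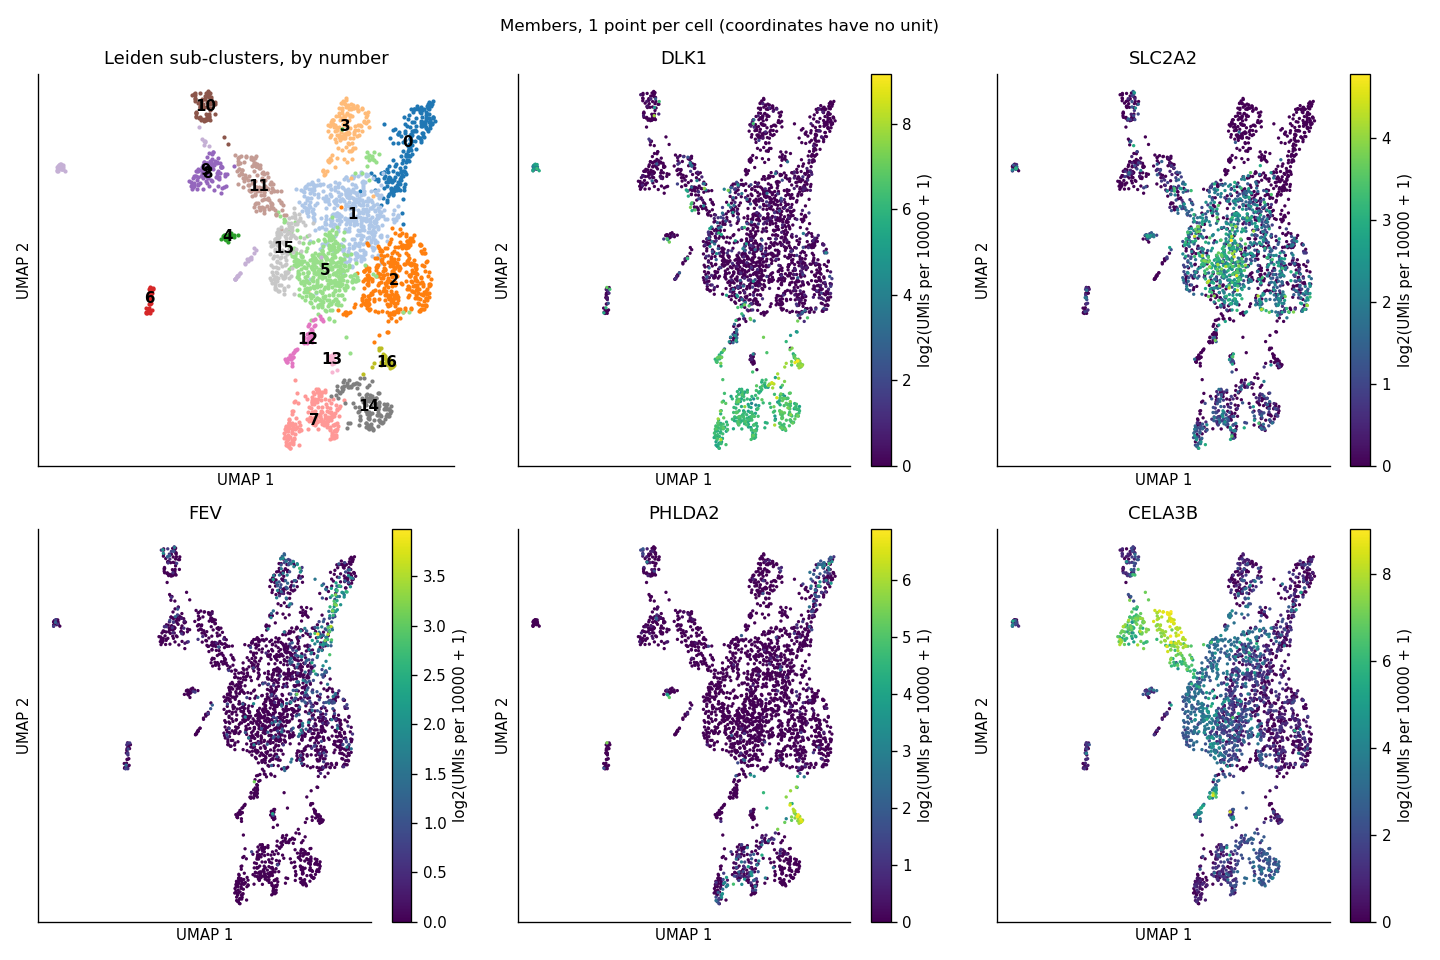
Map (UMAP, axes without units) of the 2534 low-hormone endocrine cells, coloured by sub-cluster in 1 panel and by log2(UMIs per 10000 + 1) of DLK1, SLC2A2, FEV, PHLDA2 and CELA3B in the others. FEV gathers in sub-cluster 0 (170 CPM), SLC2A2 in sub-cluster 5 (460 CPM), CELA3B in sub-clusters 8 and 11, and PHLDA2 in sub-cluster 16, where DLK1 reaches 16545 CPM.

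**Figure D4:**
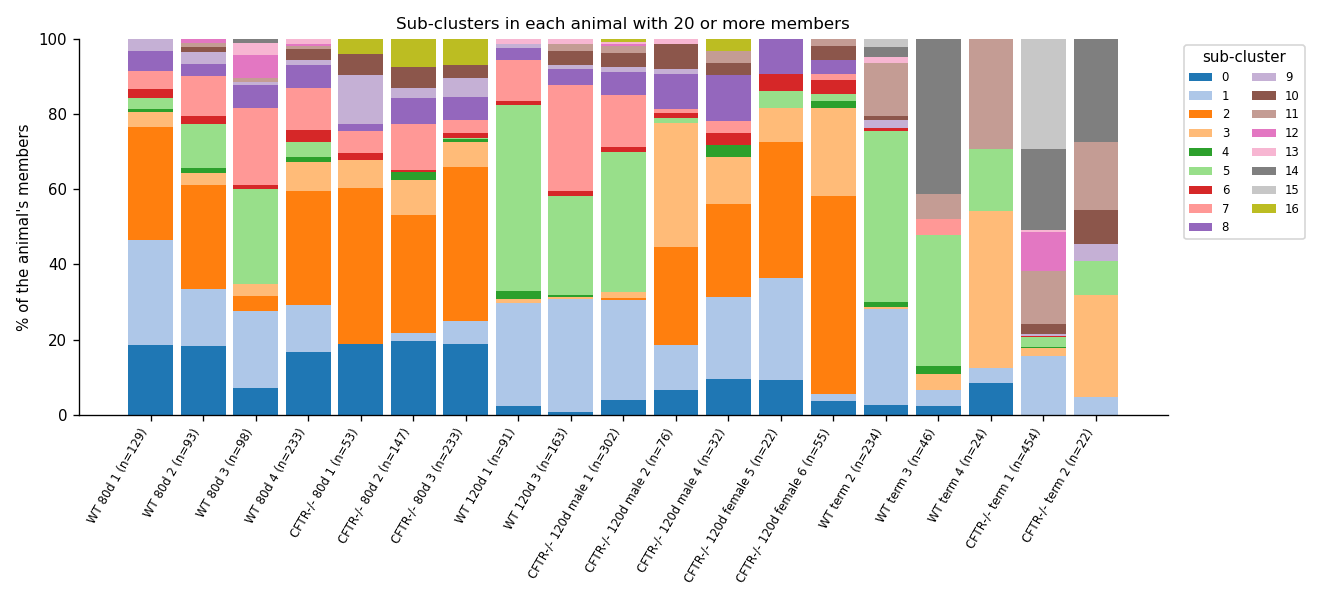
Percentage of the low-hormone endocrine cells of each of 19 animals that fell in each sub-cluster, as stacked bars. Sub-cluster 2 fills much of the bars at 80 days, WT replicate 3 excepted, and is absent at term, and sub-clusters 12, 14 and 15 fill much of the bar of CFTR-/- replicate 1 at term.

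The comparison at 80 days set the cloned CFTR-/- fetuses against the naturally bred WT group, so it cannot tell loss of CFTR from cloning. Of 11527 genes tested in sums per animal, 11 (0.0954%) passed in members by edgeR, 7 (0.0607%) higher and 4 (0.0347%) lower in the 3 cloned CFTR-/- fetuses than in the 4 WT group fetuses. Of all genes 776 (6.73%) had an unadjusted p under 0.05, and DESeq2 called 22. PHLDA2, an imprinted gene that restrains placental growth, changed most among those with a symbol and at least 20 CPM. After scaling by edgeR's library factors it was 19.5, 17.6, 20.1 and 17.3 CPM in WT replicates 1 to 4 and 188, 455 and 341 CPM in the CFTR-/- fetuses, so the groups did not overlap. It rose by 4.14 ± 0.60 on the log2 scale (SE; edgeR adjusted p = 0.0134). For all genes, the share without overlap between the groups was 12%.

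Most, but not all, of the PHLDA2 signal in the CFTR-/- fetuses sat in a small number of cells. Sub-cluster 16 held 156 of 222, 899 of 1424 and 1228 of 1555 PHLDA2 UMIs of the 3 CFTR-/- fetuses. At least 3 PHLDA2 UMIs were found in 8 of 53, 42 of 147 and 39 of 233 of their members, against 2 of 129, 3 of 93, 5 of 98 and 3 of 233 members in the WT group. Without sub-cluster 16 the level was 140.6 ± 94.0 CPM (SD, n = 3, unscaled) against 21.9 ± 1.36 (SD, n = 4). The log2 difference was then 2.50 (edgeR adjusted p = 0.0632), and the call was lost. That loss decides nothing, because sub-cluster 16 was built from the same transcripts, was led by PHLDA2 and held no WT group cell. Leaving it out could only lower the CFTR-/- side. Even so, each CFTR-/- fetus remained above each WT group fetus. In hormone-rich cells PHLDA2 was 26.8 ± 23.2 CPM in the CFTR-/- fetuses and 1.45 ± 1.10 CPM in the WT group, and in duct-rich cells 46.9 ± 25.4 and 5.57 ± 4.23 CPM. Leaving out the 2 CFTR+/- fetuses, the PHLDA2 difference was 4.04 and its call was lost (edgeR adjusted p = 0.497). At 120 days at least 3 PHLDA2 UMIs were found in 2 of 91, 0 of 19 and 13 of 163 members of the WT fetuses. The cloned CFTR-/- males with members had 16 of 302, 1 of 76 and 2 of 32. The naturally bred CFTR-/- females had 0 of 22 and 1 of 55.

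GNG11, a G protein gamma subunit, was 8.05, 2.45, 7.31 and 3.01 CPM in the WT group and 71.9, 28.5 and 57.9 CPM in the CFTR-/- fetuses. It rose by 3.34 ± 0.58 on the log2 scale (edgeR adjusted p = 0.0327). Without sub-clusters 8, 9, 10, 11 and 13 the difference was 4.15 (adjusted p = 0.00325). In duct-rich cells GNG11 was 225 ± 69.8 CPM in the CFTR-/- fetuses and 4.98 ± 2.66 CPM in the WT group. SPA17, sperm protein 17, was 66.1, 55.3, 64.4 and 66.9 CPM in the WT group and 34.7, 27.5 and 21.7 CPM in the CFTR-/- fetuses, and fell by 1.21 on the log2 scale (SE 0.22, edgeR adjusted p = 0.0453). The same order of groups was seen for SPA17 in hormone-rich cells, with 101.4 ± 6.59 and 48.1 ± 7.10 CPM. Without the 2 CFTR+/- fetuses the calls of GNG11 (2.74, edgeR adjusted p = 0.803) and SPA17 (-1.26, adjusted p = 0.497) were lost too, and SPA17 passed in 9 of its 18 alternatives. The other 8 called genes were APOH, lower (0.39 against 13.5 CPM), CH25H (6.08 against 0.06 CPM) and FAM19A5 (13.6 against 2.13 CPM), both higher, and 5 genes with LOC names only. Leaving out CFTR-/- replicate 3 or WT replicate 3 gave 0 calls in this comparison, and leaving out CFTR-/- replicate 1 gave 52.

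No gene of the lists passed at 80 days. Of 17 beta cell genes tested 6 were higher and 11 lower in the CFTR-/- fetuses, with a median of -0.29 (0.00 over all genes). SLC2A2 was 95.4, 114, 127 and 110.2 CPM in the WT group and 25.4, 55.6 and 37.3 CPM in the CFTR-/- fetuses, without overlap (log2 -1.47 ± 0.72, edgeR adjusted p = 0.744). Sub-cluster 5 (460 CPM of SLC2A2) held 4, 11, 25 and 9 members of the WT group fetuses and 0, 0 and 1 of the CFTR-/- fetuses. In sub-cluster 1 (206 CPM) the counts were 36, 14, 20 and 29 against 0, 3 and 14. The part of these sub-clusters in the SLC2A2 difference was not tested. ERO1B had a difference of -1.04 (adjusted p = 0.184). DLK1 overlapped fully, with 471 to 1923 CPM in the WT group and 1173 to 1527 CPM in the CFTR-/- fetuses. Among precursor genes 9 of 12 were higher (median 0.33), and FEV was 26.5 to 45.0 CPM in the WT group and 30.9 to 52.5 CPM in the CFTR-/- fetuses. Duct genes were higher in 11 of 12 (median 1.03) and genes of neurons or chromaffin cells in 7 of 8 (median 0.85). The part of either list in the other differences was not tested. GIP was 4.76 to 45.2 CPM in the WT group and 136 to 928 CPM in the CFTR-/- fetuses (log2 4.13, adjusted p = 0.245), and in CFTR-/- replicate 1 a single member held 802 of its 1097 GIP UMIs.

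At 120 days no gene passed between genotypes. For the cloned CFTR-/- males, with 3 animals against 2 WT fetuses, edgeR called 0 of 11527 genes (0%), with 942 (8.17%) at an unadjusted p under 0.05, and DESeq2 called 16. For the CFTR-/- females, with 2 against 2, edgeR called 0 (0%), with 1138 (9.87%) at an unadjusted p under 0.05, and DESeq2 called 18. Simulated counts of this size with 200 genes changed by 2 on the log2 scale gave calls for 56.0% and 37.5% of them, so a change of that size could be missed. Cells of other types moved with these groups. Acinar transcripts made up 0.797% and 1.13% of members' UMIs in the 2 WT fetuses, 1.59%, 0.894% and 3.23% in the males and 5.52% and 3.103% in the females, and their part in the differences was not tested.

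FEV, the precursor transcription factor, was 2.61 and 4.98 CPM in the WT fetuses, 11.5, 46.3 and 45.6 CPM in the cloned CFTR-/- males and 44.2 and 46.9 CPM in the CFTR-/- females, so each CFTR-/- fetus was above each WT fetus. The log2 difference was 2.90 ± 0.59 (edgeR adjusted p = 0.160) for the males and 3.50 ± 0.66 (adjusted p = 0.122) for the females, and neither passed. Of all genes 25.7% and 45.3% did not overlap in these comparisons, FEV among them. Without sub-clusters 8, 9, 10, 11 and 13 the adjusted p was 0.102 and 0.0485, and by DESeq2 it was 0.00300 and 0.000504. In hormone-rich cells FEV was 52.0 ± 12.3 CPM (SD, n = 3) in the WT fetuses. Cloned replicate 1, the lowest of the CFTR-/- fetuses in FEV, held 302 members, against 76 and 32 in replicates 2 and 4.

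The members of these fetuses also lay in different sub-clusters, which were built from the same transcripts. Of the 91 and 163 members of WT replicates 1 and 3, 0 were in sub-cluster 2 and 1 each in sub-cluster 3. Cloned replicate 1 had 2 and 5 of its 302 there, replicate 2 had 20 and 25 of 76, and replicate 4 had 8 and 4 of 32. The females had 8 of 22 and 29 of 55 members in sub-cluster 2 and 2 and 13 in sub-cluster 3. In the SLC2A2-rich sub-cluster 5 there were 45 and 43 members of the WT fetuses, 112, 1 and 0 of the males and 1 each of the females. Sub-cluster 0 held 2 and 1 members of the WT fetuses, 12, 5 and 3 of the males and 2 each of the females. FEV stood at 170 CPM in sub-cluster 0, 19.1 CPM in sub-cluster 2 and 72.2 CPM in sub-cluster 3. It stood at 8.76 CPM in sub-cluster 5 and 0.52 CPM in sub-cluster 7. SLC2A2 stood at 6.88 CPM in sub-cluster 0, 175 CPM in sub-cluster 2, 4.25 CPM in sub-cluster 3 and 460 CPM in sub-cluster 5. The part of these sub-clusters in the differences at 120 days was not tested.

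The lists at 120 days moved in several directions, with no member passing. Beta cell genes were lower in 14 of 17 (median -0.74) in the males and in 10 of 17 (median -0.53) in the females. SLC2A2 was 339 and 202 CPM in the WT fetuses, 245, 19.8 and 40.8 CPM in the males and 129 and 137 CPM in the females. The males split here, since cloned replicate 1 lay within the WT range and replicates 2 and 4 far below it. Replicates 2 and 4 had 1 and 0 members in sub-cluster 5. The females, with more SLC2A2 than these 2 males, also had only 1 member each there. HADH was 491 and 411 CPM in the WT fetuses and 262, 78.2 and 142 CPM in the males (log2 -1.46, adjusted p = 0.409). Immediate early and heat shock genes were higher in 18 of 18 in the males (median 1.25) and in 8 of 18 in the females (median -0.41). Alpha cell genes were higher in 6 of 9 in the males (median 0.72) and in 8 of 9 in the females (median 0.90). PP cell genes were higher in 2 of 3 (1.89) and 3 of 3 (1.91), and delta cell genes lower in 4 of 5 (-0.92) and 5 of 5 (-1.21). Cell division genes were higher in 15 of 18 (1.33) and 17 of 18 (2.11), and peptide hormones outside the rule in 11 of 13 (2.98) and 9 of 13 (2.09). For GHRL, which was at 0 in both WT fetuses, the values were 550.1, 3.30 and 1717 CPM in the males and 0 and 429 CPM in the females, from 1 to 8 members in each animal with any.

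At term edgeR called 0 of 11527 genes (0%) between 2 CFTR-/- and 3 WT lambs, with 848 (7.36%) at an unadjusted p under 0.05, and DESeq2 called 8. Both CFTR-/- lambs in this fit were female and 2 of the 3 WT lambs male. With sex in the model they are set against the only female WT lamb, replicate 3, so the count of calls from that fit cannot be set beside the main one. CFTR-/- replicate 1 held 454 members and replicate 2 held 22. Acinar transcripts made up 2.97% and 12.1% of their members' UMIs, and 7.05%, 1.64% and 10.97% in the WT lambs. Beta cell genes were lower in 15 of 17 (median -0.56), unfolded protein response genes in 12 of 17 (median -0.62) and cell division genes in 17 of 18 (median -1.53), with none past the threshold. DLK1 spanned 171 to 4639 CPM in the WT lambs and 2011 and 4049.9 CPM in the CFTR-/- lambs.

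The genotype difference itself was also compared between ages. No gene passed for 120 days (males) against 80 days, with 441 (3.83%) at an unadjusted p under 0.05, or for term against 120 days (males), with 830 (7.20%). For PHLDA2 the effect at 120 days was smaller than at 80 days by 3.12 on the log2 scale (unadjusted p = 0.00254, edgeR adjusted p = 1.00), which did not pass.

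WT animals showed the course with age. From 80 to 120 days edgeR called 0 of 11527 genes (0%), with 824 (7.15%) at an unadjusted p under 0.05, and DESeq2 called 24. FEV was 28.8, 45.0, 26.5 and 36.1 CPM at 80 days and 2.61 and 4.98 CPM at 120 days, a log2 difference of -3.07 ± 0.55 (adjusted p = 0.0660). It passed when sub-clusters 8, 9, 10, 11 and 13 were left out (-3.21, adjusted p = 0.0390). PAX4 had a difference of -1.60 (adjusted p = 0.465) and SOX4 of -1.12 (adjusted p = 0.564), and 8 of 12 precursor genes were lower (median -1.11). Beta cell genes were higher in 14 of 17 (median 0.44), with SLC2A2 at 95.4 to 127 CPM and then 339 and 202 CPM (log2 1.28, adjusted p = 0.778). Granule genes were higher in 11 of 14 (median 0.26). Acinar genes were higher in 13 of 13 (median 1.12).

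From 120 days to term 17 genes (0.147%) passed in the WT animals, 11 (0.0954%) higher and 6 (0.0521%) lower, with 1401 (12.2%) at an unadjusted p under 0.05 and 136 called by DESeq2. The groups were 2 fetuses and 3 lambs, and 22.3% of all genes did not overlap. DAPL1 changed most among the genes with a symbol and at least 20 CPM. It was 1.96 and 1.53 CPM at 120 days and 87.7, 229 and 41.7 CPM at term, so it rose by 6.16 ± 0.71 on the log2 scale (edgeR adjusted p = 0.000661). The CFTR-/- lambs had 487 and 197 CPM. DIO1, the deiodinase that turns thyroxine into active thyroid hormone, was 0 and 0.767 CPM at 120 days and 17.1, 57.3 and 27.8 CPM at term (log2 5.97 ± 0.77, adjusted p = 0.00259), and 53.7 and 68.4 CPM in the CFTR-/- lambs. Leaving out 1 animal gave DIO1 differences of 5.22 to 9.06, with 9.06 without WT replicate 3 at 120 days and 5.32 (edgeR adjusted p = 0.0653) without WT replicate 1 at 120 days. DAPL1 and DIO1 were at 0 to 4.02 CPM in every fetus of either genotype, below every lamb. FAM174B was 32.6 and 39.5 CPM and then 274, 143 and 366 CPM (log2 2.82, adjusted p = 0.00300).

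EDEM1, which sends misfolded glycoproteins to degradation, was 11.1 and 15.3 CPM at 120 days and 37.5, 72.7 and 83.4 CPM at term (log2 2.15, edgeR adjusted p = 0.0433). The protease PRSS23 rose by 2.09 (adjusted p = 0.0433). KCNB2, a voltage-gated potassium channel, was 139.6 and 124 CPM and then 49.6, 42.0 and 41.7 CPM, and fell by 1.54 (adjusted p = 0.0433). KCNB2 was the only gene of the lists called in any comparison, and its level in hormone-rich cells was 98.5 ± 15.9 CPM at 120 days and 38.1 ± 12.7 CPM at term. MEST was 152 and 172 CPM and then 50.2, 44.8 and 27.8 CPM, and fell by 1.89 (adjusted p = 0.0175). ENHO, which encodes the peptide adropin, fell by 1.96 (adjusted p = 0.0175), RAB3B, a small GTPase of exocytosis, by 2.19 (adjusted p = 0.0482) and EGFL6 by 4.46 (adjusted p = 0.0482). EGFL6 was 166 CPM in WT replicate 1 and 20.7 CPM in WT replicate 3 at 120 days, so its size rests on replicate 1. The remaining 7 were PLA1A and TLCD4, higher, MATN2, which was at 0 in all 3 lambs, and 4 genes with LOC names.

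These differences at term came with a heavier acinar load. Acinar genes were higher in 13 of 13 at term (median 3.21, against -0.02 over all genes), and acinar UMIs made up 7.05%, 1.64% and 10.97% of members' UMIs in the 3 WT lambs. Leaving out members with more than 5% acinar UMIs, DAPL1 (6.59, edgeR adjusted p = 5.89e-06), DIO1 (6.02, adjusted p = 0.00730), FAM174B (2.59, adjusted p = 0.0216) and ENHO (-1.91, adjusted p = 0.0478) remained called. EDEM1 (1.38, adjusted p = 0.0848), PRSS23 (1.06, adjusted p = 0.298), MEST (-1.73, adjusted p = 0.0552), RAB3B (-2.36, adjusted p = 0.0552), KCNB2 (-1.36, adjusted p = 0.0752) and EGFL6 (-4.13, adjusted p = 0.0949) did not. That fit also lost WT replicate 4 at term, left with 17 members, under the limit of 20. Leaving out that lamb alone, with all other members kept, gave 8 calls, and the same 6 genes and ENHO were not called (edgeR adjusted p of 0.0510 to 0.0702). Without WT replicate 1 at 120 days no gene was called, and without WT replicates 2 or 3 at term 153 and 135 were.

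Between 120 days and term no gene of the lists other than KCNB2 was called. Beta cell genes were lower in 12 of 17 (median -0.80), with HADH at 491 and 411 CPM and then 119, 194 and 27.8 CPM (log2 -1.90, edgeR adjusted p = 0.0823) and PCSK1 at 695 and 929 CPM and then 380, 538 and 83.4 CPM (adjusted p = 0.320). Unfolded protein response genes were higher in 16 of 17 (median 0.51), with XBP1 at 207 and 312 CPM and then 847, 585 and 635 CPM (log2 1.41, adjusted p = 0.0930). The acinar genes moved with both lists, and their part in them was not tested. Granule genes were lower in 11 of 14 (median -0.30), and among islet transcription factors PAX6 was 319 and 246 CPM and then 196, 69.9 and 55.6 CPM (adjusted p = 0.143).

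**Figure D5:**
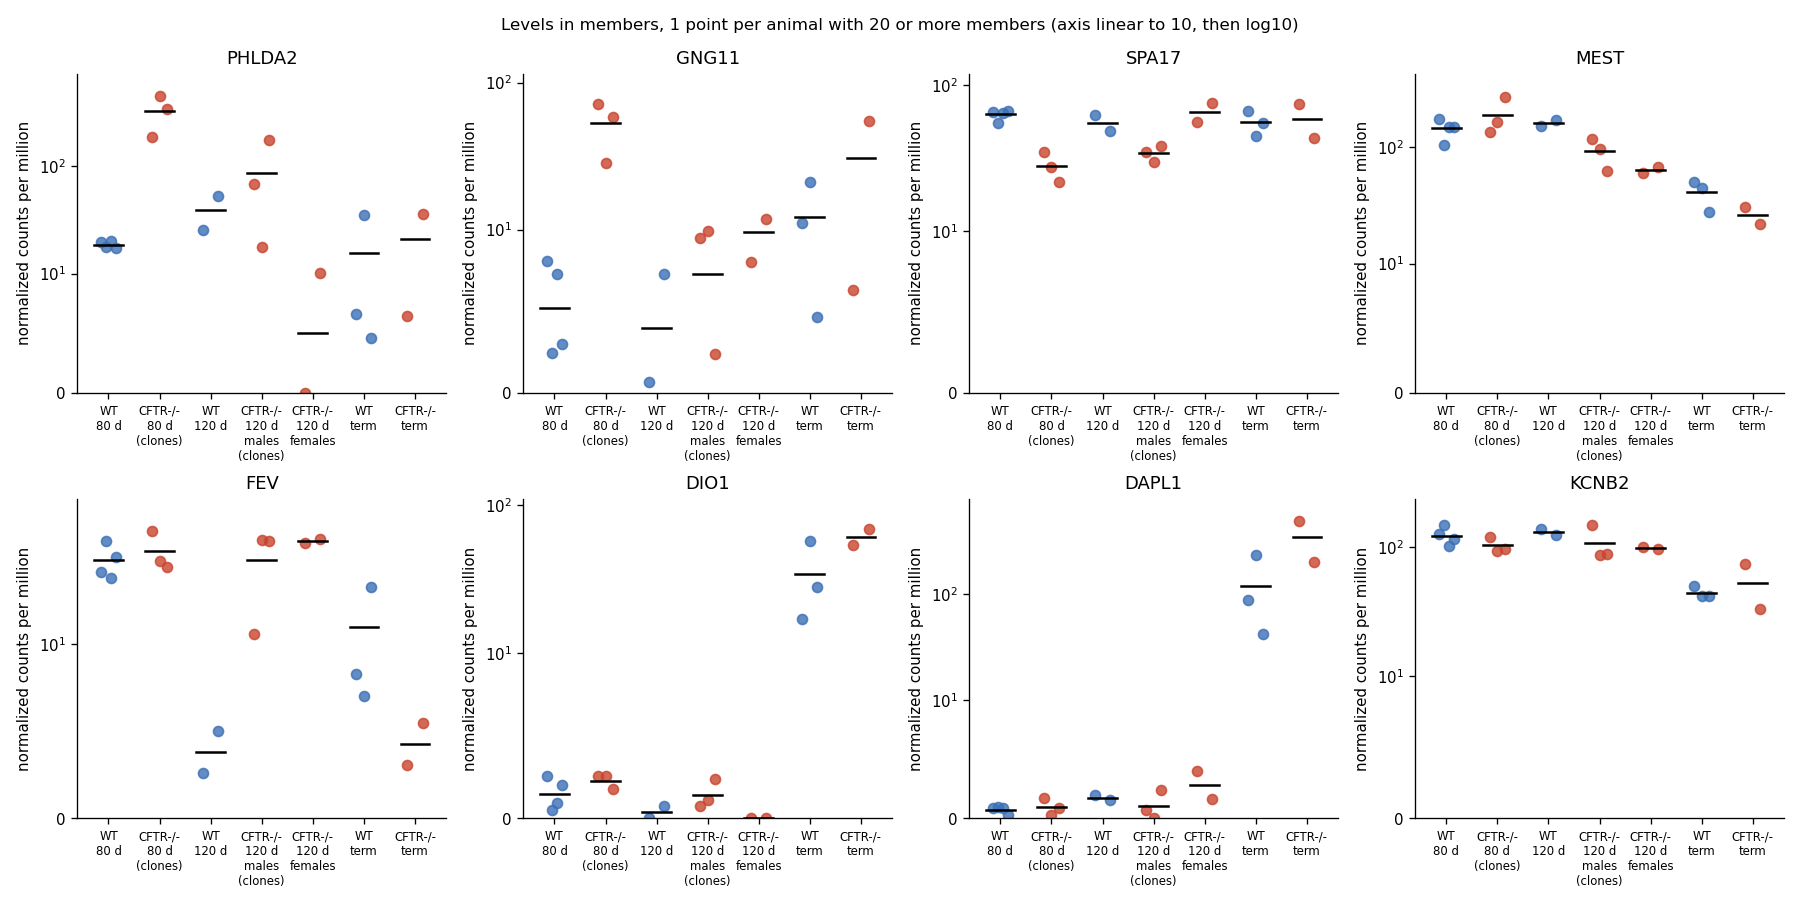
Normalized CPM of 8 genes in low-hormone endocrine cells, 1 point per animal by group with the mean as a bar, on an axis that is linear to 10 and logarithmic above; WT groups are blue and CFTR-/- groups red. PHLDA2 and GNG11 stand high and SPA17 low in the 3 CFTR-/- fetuses at 80 days, among the groups at 120 days FEV is lowest in the 2 WT fetuses (2.61 and 4.98 CPM), and DAPL1 and DIO1 appear at term in both genotypes.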

How the data were processed

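The authors ran Cell Ranger 3.1.0 and deposited raw UMI counts per gene and barcode for each of 26 libraries, with no normalization. Condition, replicate, sex and the heterozygous fetuses came from the sample records, and breeding, shared pregnancies and the edited exons from the study's methods. The members and gene lists were chosen with earlier results of these data known. Of 24478 genes 8432 have LOC names, of which 501 were paired with symbols through a RefSeq gene table of another sheep assembly (ARS-UI_Ramb_v3.0, names only). Counts of members were summed per animal, libraries of an animal added, and fitted over 7 groups with edgeR 4.0.16 (TMM, filterByExpr, quasi-likelihood test, adjusted p of at most 0.05); the genes of the rule were not tested. DESeq2 1.42.0 was an alternative. Shares, with libraries of an animal averaged, were compared by exact two-sided permutation (scipy 1.17.1), adjusted over 6 comparisons. Named are list genes, up to 5 genes higher and 5 lower per comparison that were called, did not overlap, reached 20 CPM and had a symbol, and, with no test, the 20 highest and 10 lowest ratios to hormone-rich cells and the 10 highest to cells outside the gate, of at least 50 CPM. Other genes named were chosen after their values were seen. Sub-clusters used scanpy 1.11.5 (2000 variable genes, 20 components, resolution 0.5, seed 88). Doublets were not removed; Scrublet scores ranked 3466 cells as highest (0.8% per 1000 barcodes). In simulated counts, where 200 of 11534 genes carried a log2 change of 2, the fit recovered 37.5% to 79.5% of them over the 6 comparisons and 2.60% to 8.44% of calls were false. Some genes are not reported here.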

Additional observations from a re-analysis of the deposited data

Results flagged for a closer look

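Groups of 4 animals were tested 18 times for a sample far from the others. The tests covered shares of members and, in the WT group at 80 days only, the genes named from the fits. In 1 of them such a sample was found: FAM174B in WT replicate 2 at 80 days, with 28.4 normalized CPM against 47.5 CPM in the nearest of the other 3. Its gap was 0.862 of the group's range, past the critical value of 0.829 for 4 samples. Chance alone gives such a sample in about 1 in 20 tests. The fetus is CFTR+/-, as is replicate 4 at 50.6 CPM, and FAM174B was named for its difference between 120 days and term, which does not use this animal.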

How the results depend on the processing

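Thinned to 3000 UMIs per cell, the share of kept cells for the males at 120 days differed by 0.315 points and their share of endocrine cells by 2.08, both with the other sign. The thinned shares of endocrine cells at term (-1.98) and for WT term against 120 days (6.99) also lack WT replicate 1 at term, without which the unthinned differences were -4.01 and -2.84. Leaving out 1 animal gave -1.37 to 0.272 for the share of kept cells in the males, with 0.0447 without WT replicate 3 and 0.272 without cloned replicate 3. At term it gave -0.759 to 1.57 for kept cells and -12.9 to 11.5 for endocrine cells, with -0.759 and -12.9 without CFTR-/- replicate 1. No share passed under any alternative listed, and in the main setting none could, for want of animals.

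Counts of genes called moved more. They are given for CFTR-/- against WT at 80 days, males and females at 120 days and term, then WT 120 against 80 days and term against 120 days. Without a filter on low counts they were 124, 69, 83, 72, 67 and 259, by DESeq2 22, 16, 18, 8, 24 and 136, and without sub-clusters 8, 9, 10, 11 and 13 they were 31, 5, 9, 59, 24 and 58, with 2 WT lambs and 1 CFTR-/- lamb left at term, so that the 59 cannot be set beside the other counts, nor can the next count of 16, with the same lambs left, or that of 1 without high doublet scores, with 1 CFTR-/- lamb left. With sex as a covariate they were 21 at 80 days, 105 at term, 8 and 150 for the WT ages, and no such fit could be had for the females. Among the animals fitted, sex differed within a group only in the WT lambs. The term count with sex thus sets the CFTR-/- lambs against a single WT lamb and cannot be set beside the other counts. The count with sex for WT term against 120 days rests on the male lambs. At 80 days and for WT 120 against 80 days all animals fitted were male, so those counts are not adjusted for a sex difference. Without members over 5% acinar UMIs 32 were called at 80 days and 16 at term. RLE scaling gave 28 for WT term against 120 days, animals with 10 or more members gave 3 and 113 for the WT ages, and leaving out high doublet scores gave 1 at term. At 80 days 5 genes were called without sub-cluster 16, GNG11 but not PHLDA2 or SPA17 among the named ones, and 2 without the CFTR+/- fetuses, none of these 3 among them. For PHLDA2 the loss without sub-cluster 16 decides nothing, since PHLDA2 led that sub-cluster and no WT group cell was in it. Leaving out 1 animal gave 0 to 52, 0 to 11, 0 to 0, 0 to 8, 0 to 3 and 0 to 153, with 11 without cloned replicate 1, 8 without WT replicate 3 at term, 5 without CFTR-/- replicate 1 at term, and 3 without WT replicate 1 at 120 days. The causes were not tested.

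Replicate numbers are shared between groups, but same-numbered animals did not deviate together (correlations of -0.135 to 0.0849), so they share only a number. With the replicate number as a block 10 genes were called at 80 days (3 pairs) and 17 for WT 120 against 80 days (2 pairs). Few members and few animals limit each comparison, and with 1 or 2 animals in a group the spread is borrowed from the others, a lone animal being assumed to vary as theirs do.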
